A study of Mus musculus with 21 samples.

Results

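The genes followed here are the mouse genes whose symbols start with *Tex* (testis expressed) or *Spata* (spermatogenesis associated) and a number, without *Tex12* and *Tex101*. The rule reads the symbol and uses no measured value, but it was set with earlier results of these data known. The count tables list 24456 genes, and 55 of them met the rule, 27 named *Tex* and 28 named *Spata*. All 55 were detected, with the fewest counts for *Spata5l1* and *Tex28*, at 109 and 172 over the 21 libraries. Each gene was assigned to the stage in which its mean CPM over the wild-type libraries was highest, where CPM is a gene's counts per 1000000 counts on genes in that library.

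The names record where these genes were first found, in the testis, and not a shared function. Some encode proteins of meiosis, in which spermatocytes pair and recombine their chromosomes, and others build the sperm head, neck and tail while the haploid round spermatids elongate and condense. Several are active in most tissues and carry a testis name only by history.

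RNA had been sequenced from fractionated testis cells of wild-type (WT) mice and of mice deficient in H2A.L.2, a histone H2A variant of condensing spermatids (*H2al2* KO, here KO). Pachytene spermatocytes, which are in meiotic prophase, round spermatids and condensing spermatids had 3 libraries in each genotype, and spermatozoa had 2 in WT and 1 in KO. The labels name no treatment, age or strain, nor how the *H2al2* allele was made. They also do not say whether replicates came from separate animals, so the p-values measure the spread between these libraries, which may be technical. Fractions are enriched by cell type, not pure, and fewer cells of a type cannot be told apart from less RNA per cell.

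Counts on genes ranged from 2772995 to 8201682 per library. The targeted gene, listed as *H2afb1*, had 190 to 199 CPM in WT and 19.9 to 24.6 CPM in KO round spermatids, and 165 to 242 CPM against 26.8 to 34.9 CPM in condensing spermatids (log2 fold changes −3.10 and −2.71, adjusted p = 3.40e-08 and 9.54e-07, quasi-likelihood test of edgeR). In pachytene spermatocytes it had 16 to 42.0 CPM in WT and 3.29 to 5.35 CPM in KO, a change of −2.75 that did not pass (adjusted p = 0.484), and in spermatozoa 46.9 and 57.4 CPM against 14.6 CPM. The 5 pachytene markers (*Sycp3*, *Sycp1*, *Hormad1*, *Piwil1*, *Ccna1*) summed to 1600 to 2085 CPM in pachytene libraries and to 364 to 424 CPM in round spermatids. The 5 markers of condensing spermatids (*Prm1*, *Prm2*, *Tnp1*, *Tnp2*, *Odf1*) summed to 16277 to 20962 CPM in round and 17956 to 27039 CPM in condensing spermatids, with overlapping ranges. The 5 round spermatid markers (*Acrv1*, *Acr*, *Tssk1*, *Catsper3*, *Sun5*) summed to 1013 to 1083 CPM in round and 563 to 655 CPM in condensing spermatids. Replicates 2 and 3 of WT round spermatids differed by a chi-square per degree of freedom of 1.23 over genes, near counting noise, against 3.07 to 28.5 for the other pairs within a group, so the 3 WT round libraries may stand for fewer separate samples. The WT pachytene library of replicate 3 stood apart, with 1604 CPM of these condensing markers against 4009 and 3773 CPM in replicates 1 and 2. In spermatozoa the 5 macrophage markers summed to 243 and 252 CPM in WT and 1072 CPM in KO, against 2.09 to 25.3 CPM in the other 18 libraries. The 5 epididymis markers, some of them at 0, summed to 1785 and 1971 CPM in WT and 548 CPM in KO spermatozoa, against 0.747 to 7.41 CPM.

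The 31 genes highest in round spermatids made up 56.4% of the 55, while 19.8% of the 17900 genes with at least 10 counts in WT peaked there. Another 11 (20.0%, against 30.2% of all genes) were highest in pachytene spermatocytes, 8 (14.5%, against 12.0%) in condensing spermatids and 5 (9.09%, against 37.9%) in spermatozoa. These shares are a description of WT means and were not tested. For 22 genes the highest WT mean was under 1.2 times the next one, among them 6 of the 8 genes of the condensing group, where *Spata6* had 1200 CPM in condensing and 1198 CPM in round spermatids. With TMM-normalized CPM the condensing group had 4 genes and with DESeq2 size factors 2, and the genes that left it moved to the round group. The genes took 0.585% to 0.688% of the counts in WT pachytene libraries, 1.43% to 1.5% in round spermatids, 1.23% to 1.37% in condensing spermatids and 0.516% to 0.553% in spermatozoa.

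**Figure D1:**
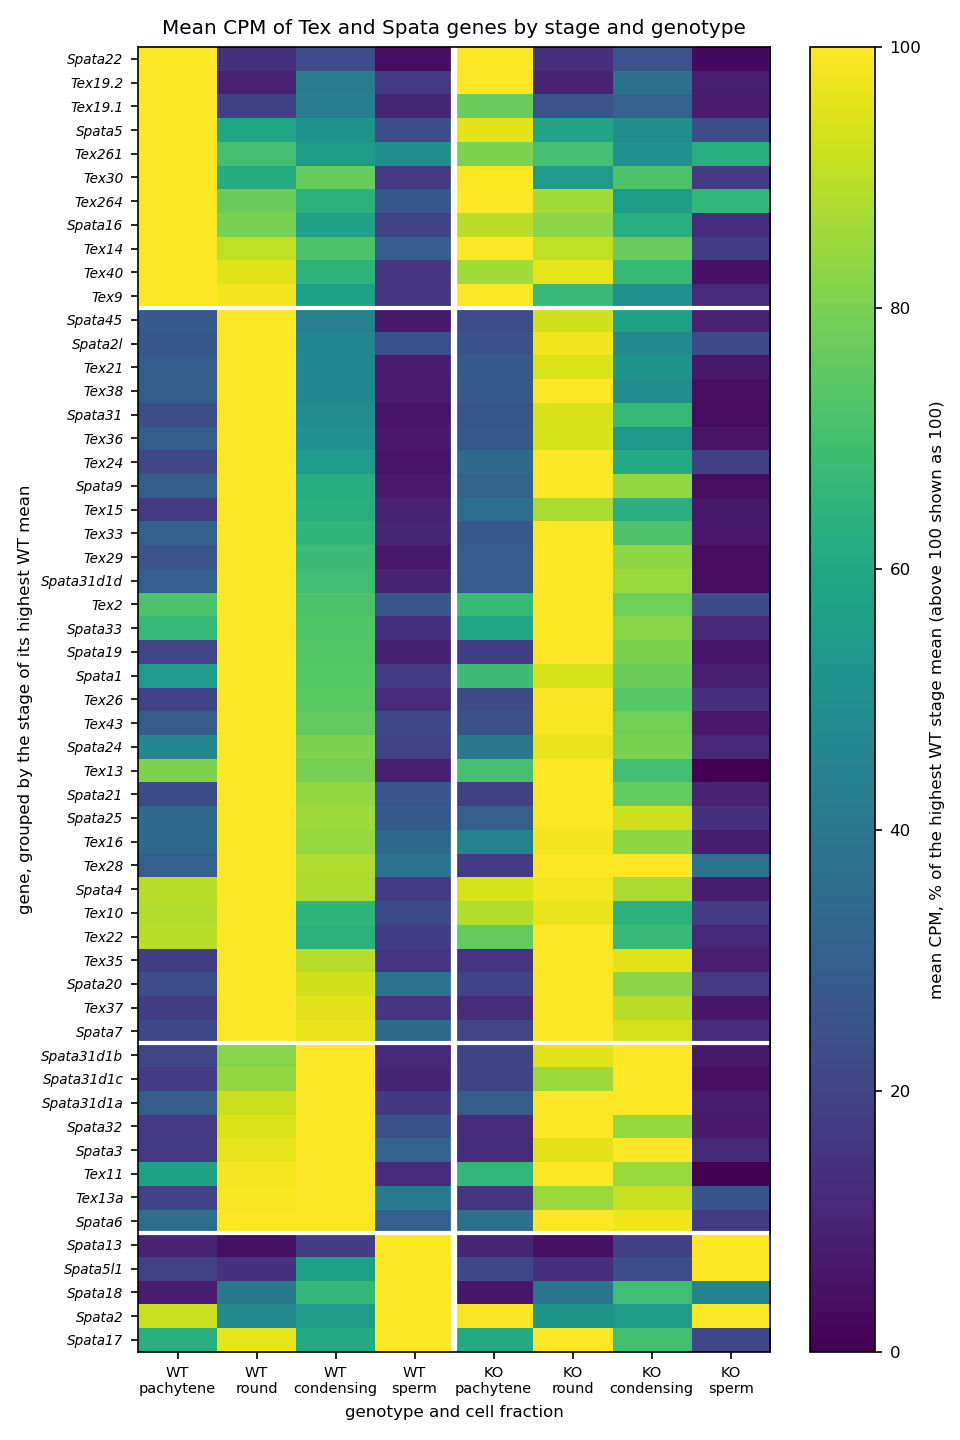
Mean CPM of the 55 genes (rows) in each genotype and cell fraction (columns), as a percent of the gene's highest WT stage mean, in 4 blocks by the stage of that mean. The largest block, of 31 genes, was highest in WT round spermatids, and the 5 genes at the bottom in WT spermatozoa.

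The starts of these genes differed in CpG content between the groups, a feature that the grouping did not use. Windows of 250 bases before to 50 bases after the start, from RefSeq on GRCm38.p6, were found for 47 genes. The median window held 20.0 CpG dinucleotides in the pachytene group (11 genes) and 30.0 in the spermatozoa group (5 genes), but 4 in the round group (25 genes) and 3 in the condensing group (6 genes). Among all genes with the same highest stage the medians were 21, 18, 11 and 11. At least 15 CpG were present in 8 of 11, 5 of 5, 6 of 25 and 1 of 6 windows, against 72.9%, 60.6%, 43.1% and 43.2% of all genes with the same highest stage. For a gene with more than 1 window, 1 of them was counted. *Spata13* of the spermatozoa group had 22 CpG in the counted window and 9 in another, and *Spata6* of the condensing group 16 and 3. The counts of 5 of 5 and 1 of 6 thus depend on the window taken. No test was run on these counts. The windows below show the contrast with the gene of each group that had the largest ratio of its highest to its next WT mean, at least 5 CPM and a single window, with every CpG in capitals. They lie at chr11:73329491-73329790 on the plus strand (*Spata22*, pachytene), chr4:115780985-115781284 on the minus strand (*Tex38*, round), chr13:59712034-59712333 on the plus strand (*Spata31d1b*, condensing) and chr5:73651130-73651429 on the plus strand (*Spata18*, spermatozoa), and hold 25, 3, 2 and 30 CpG.
Spata22: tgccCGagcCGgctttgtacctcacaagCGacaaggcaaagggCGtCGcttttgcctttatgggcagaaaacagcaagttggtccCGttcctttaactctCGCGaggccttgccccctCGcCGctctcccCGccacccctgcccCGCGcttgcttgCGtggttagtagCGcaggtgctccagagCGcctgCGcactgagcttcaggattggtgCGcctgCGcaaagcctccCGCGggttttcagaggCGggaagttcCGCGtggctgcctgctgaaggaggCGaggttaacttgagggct
Tex38: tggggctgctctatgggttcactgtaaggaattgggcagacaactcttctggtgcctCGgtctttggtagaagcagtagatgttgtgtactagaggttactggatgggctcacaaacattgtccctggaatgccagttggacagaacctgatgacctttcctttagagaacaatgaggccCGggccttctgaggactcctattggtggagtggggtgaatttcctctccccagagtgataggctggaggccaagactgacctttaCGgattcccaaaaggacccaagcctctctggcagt
Spata31d1b: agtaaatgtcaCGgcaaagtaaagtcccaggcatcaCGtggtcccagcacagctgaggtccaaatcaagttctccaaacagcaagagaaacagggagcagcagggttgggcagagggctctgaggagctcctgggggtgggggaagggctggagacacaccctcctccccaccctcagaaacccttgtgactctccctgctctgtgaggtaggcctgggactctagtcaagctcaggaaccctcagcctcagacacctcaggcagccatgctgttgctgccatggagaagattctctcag
Spata18: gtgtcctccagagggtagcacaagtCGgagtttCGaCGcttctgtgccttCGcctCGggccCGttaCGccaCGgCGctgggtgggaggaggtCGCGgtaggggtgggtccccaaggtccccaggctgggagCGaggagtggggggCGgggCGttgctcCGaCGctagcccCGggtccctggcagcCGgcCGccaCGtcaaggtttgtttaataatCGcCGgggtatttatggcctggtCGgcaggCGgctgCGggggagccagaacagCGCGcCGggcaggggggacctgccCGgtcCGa
The CpG of *Spata22* and *Spata18* are spread along the whole window, while the few of *Tex38* are far apart and both of *Spata31d1b* lie near its 5′ end.

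**Figure D2:**
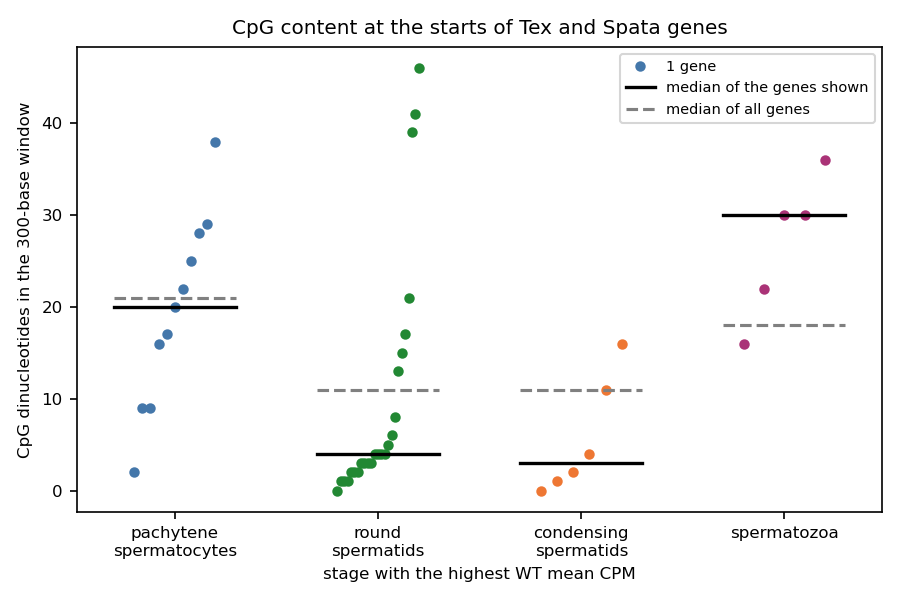
CpG dinucleotides in the 300-base window at the start of 47 *Tex* and *Spata* genes (points), by the stage with the highest WT mean CPM, with the median of these genes (solid line) and of all genes with that highest stage (dashed line). The points of the round and condensing groups crowd near 0, below the medians of 11 of all genes.

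Motifs of 3 kinds bound by factors of spermatogenesis were searched in the same windows on both strands. The RFX half-site GTTGCCA was found in 4 of 47 genes (8.51%, against 5.02% of the 27025 genes with a window), namely *Spata31d1a*, *Spata33*, *Spata4* and *Tex33*. The cAMP response element TGACGTCA was found in *Spata7* alone (2.13% against 2.03%), and the MYB site AACCGTTA in 0 (0.174% of all). A match is a string of letters and not a measured site.

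Across all 55 genes the step from pachytene spermatocytes to round spermatids was mostly upward. In WT, 40 of the 54 genes tested rose, where 34.4% of all genes did, and 7 fell, where 35.9% did. The median log2 fold change was 1.86 over these genes and −0.02 over all 14011 genes tested. In KO, fitted on its own 9 libraries of pachytene spermatocytes, round and condensing spermatids, 42 of 54 rose (36.5% of all genes) and 8 fell (38.4%). The median was 1.88 against 0.00. Between condensing and round spermatids the direction turned, with 5 higher and 22 lower of 54 in WT (28.3% and 21.8% of all genes) and 6 higher and 29 lower in KO (29.7% and 24.5%). The median changes were smaller there, at −0.38 in WT and −0.31 in KO. From condensing spermatids to spermatozoa, tested in WT only, 48 of 54 fell (35.8% of all genes) and 4 rose (36.6%), with a median of −2.02 against −0.00. Scaling by library size alone moved the median of all genes to −0.20 and −0.15 for the round against pachytene comparisons in WT and KO. It left the medians of the *Tex* and *Spata* genes at 1.68 and 1.73.

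The stage groups came from WT means, so the members of each were tested in the KO libraries, which the grouping did not use. Of the 11 genes of the pachytene group, 6 fell from pachytene spermatocytes to round spermatids in KO, 1 rose and 4 did not pass the test, where 75.9% of all genes with that highest WT stage fell and 2.61% rose. All 31 genes of the round group rose at that step, as did 88.9% of the 3057 genes tested with the same WT peak. In condensing spermatids 22 of the 31 then fell and 9 did not pass, where 63.3% of those genes fell. The 8 genes of the condensing group also all rose in round spermatids, as did 59.2% of all genes that peaked there in WT. At most 2 of all genes were called between the genotypes in any stage, so the KO changes are no independent sign of the grouping. Only *Spata31d1c* of these rose further in condensing spermatids, by 0.35 ± 0.10 (log2 fold change ± SE, adjusted p = 0.00798), and the other 7 did not pass, where 49.4% of all genes of that group rose. Over the 3 stages with replicates in KO, 51 of 55 genes (92.7%) had the same highest stage in both genotypes, as did 84.7% of 16880 genes with at least 10 counts in each genotype. The 4 that differed were *Spata32*, *Spata6*, *Tex11* and *Tex40*, whose libraries of the 2 stages overlapped in both genotypes. Mean changes from 1 stage to the next use the same round spermatid libraries, so the 2 steps are not independent.

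**Figure D3:**
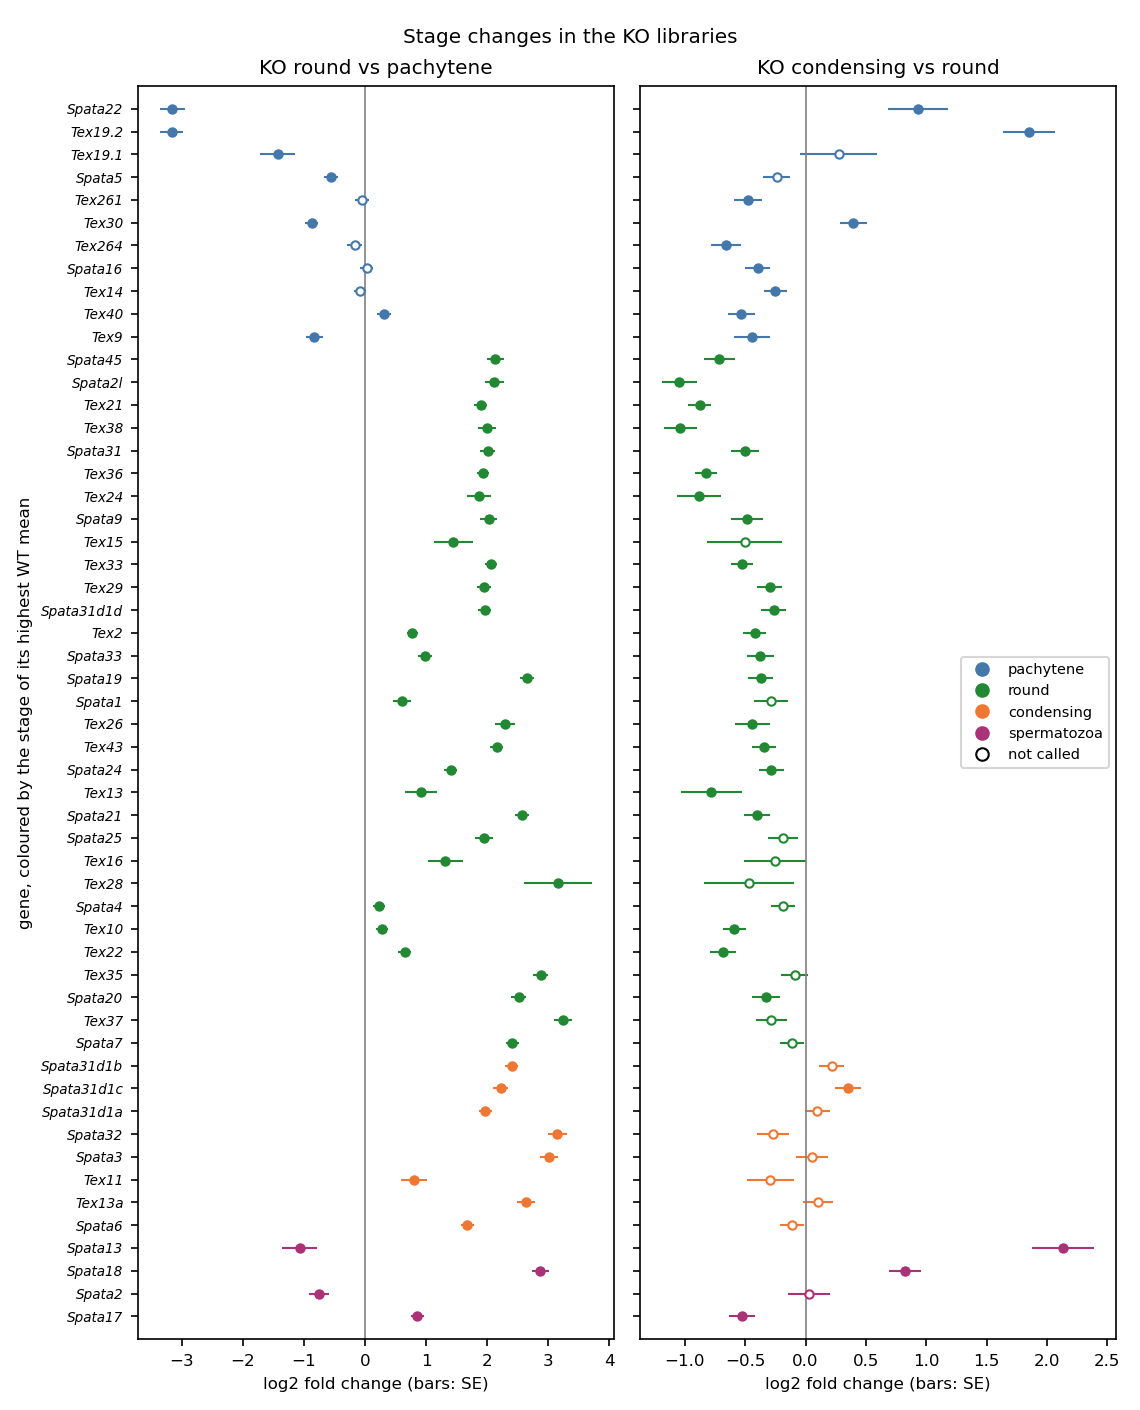
Log2 fold changes (points, with SE as bars) of the 54 tested genes between round spermatids and pachytene spermatocytes (left) and between condensing and round spermatids (right) in KO libraries, coloured by the stage of the highest WT mean, with open points for genes that did not pass the test. The green round group lies right of 0 on the left, at up to 3.25, and left of 0 on the right.

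Among the genes of meiosis, *Spata22*, whose product works with MEIOB in meiotic recombination, and *Tex19.2* had the largest falls. *Spata22* had 18, 16.1 and 24.7 CPM in WT and 31.0, 26.5 and 20.8 CPM in KO pachytene spermatocytes, against 2.42, 3 and 3.14 CPM in WT and 2.44, 2.90 and 2.49 CPM in KO round spermatids. The groups of libraries did not overlap, and in KO the gene fell by 3.15 (SE 0.21) on the log2 scale (adjusted p = 3.89e-11, by the quasi-likelihood test of edgeR adjusted over all genes after Benjamini and Hochberg, used throughout). Its exons overlap another gene annotated on the same strand in GENCODE vM21. Reads that fall on both may be missing from its counts if the annotation used for counting held that gene. It was higher again in condensing spermatids of KO, with 5.97, 4.59 and 4.57 CPM, by 0.93 ± 0.25 (adjusted p = 0.00367). *Meiob* itself had 13.3 CPM in KO pachytene spermatocytes and 5.95 CPM in round spermatids, and fell by 0.98 (adjusted p = 0.00227).

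*Tex19.1*, a repressor of retrotransposons in germ cells, and its nearby paralogue *Tex19.2* on chromosome 11 shared the pattern. *Tex19.2* had 34.1, 36.1 and 39.6 CPM in KO pachytene spermatocytes, 5.01, 3.72 and 2.21 CPM in round spermatids and 14.7, 12.7 and 12.6 CPM in condensing spermatids. All libraries of each stage lay apart from those of the others, with a fall by 3.17 (SE 0.20, adjusted p = 1.74e-11) followed by a rise of 1.85 ± 0.21 (adjusted p = 8.58e-07). *Tex19.1* was lower than its paralogue, at 10.3, 8.89 and 8.07 CPM in KO pachytene spermatocytes and 4.2, 2.76 and 2.07 CPM in round spermatids. It fell by 1.43 (SE 0.29, adjusted p = 1.53e-04), and its change to condensing spermatids, 0.28 ± 0.32, did not pass (adjusted p = 0.487). The 2 paralogues share no stretch of 75 bases in their transcripts, so read splitting between them is limited.

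The later rise of *Spata22* and *Tex19.2* came with a higher sum of pachytene markers in condensing spermatids (522 to 664 CPM in KO) than in round spermatids (364 to 424 CPM). The 5 Sertoli markers also summed to 205 to 273 CPM in KO condensing spermatids against 15.5 to 21.4 CPM in round spermatids, the 5 Leydig markers to 73.0 to 115 CPM against 5.67 to 8.39 CPM and the 5 spermatogonia markers to 55.2 to 71.7 CPM against 33.1 to 50.9 CPM. The red blood markers were higher too (17.9 to 23.4 CPM against 0.406 to 1.38 CPM). The peritubular myoid markers (298 to 343 CPM against 302 to 389 CPM) and the macrophage markers (13.0 to 19.0 CPM against 13.7 to 19.0 CPM) overlapped between the stages. The part of any of them in the rise was not tested.

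The other genes of meiosis did not follow them. *Tex14*, which is needed for the bridges between germ cells, differed little between stages, with means of 124 ± 9.08, 105 ± 3.95 and 89.2 ± 5.86 CPM (SD, n = 3) in KO pachytene spermatocytes, round and condensing spermatids. It passed only at the second step, by a fall of 0.25 (SE 0.10, adjusted p = 0.0333). *Tex11*, an X-linked gene needed for crossovers, had 12.6, 6.67 and 7.02 CPM in KO pachytene spermatocytes and 13.4, 12.4 and 15.1 CPM in round spermatids, and rose by 0.80 ± 0.21 (adjusted p = 0.00161), although a library of each stage overlapped.

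*Tex15*, required for meiosis and for piRNA-guided silencing of transposons, had the highest coefficient of variation among genes at 5 CPM or more in pachytene spermatocytes and round spermatids of both genotypes, at 40.6% to 78.5%. It had 41.2, 22.7 and 108 CPM in WT and 168, 137 and 58.0 CPM in KO pachytene spermatocytes. In round spermatids it had 178, 421 and 404 CPM in WT and 128, 380 and 366 CPM in KO, so that replicate 1 was low in both genotypes and the KO libraries of the 2 stages overlapped. The rise in KO was 1.45 ± 0.32 (adjusted p = 4.31e-04). The share of counts on the 5 summary lines that name no gene, which hold reads not assigned to a single gene, was 36.7%, 35.6% and 46.5% in the 3 WT and 51.7%, 48.0% and 41.8% in the 3 KO pachytene libraries, which puts the 6 libraries in the same order as their *Tex15* CPM. It was 34.8% and 34.6% in the 2 low round spermatid libraries and 37.9% to 42.1% in the other 4. *Spata22* showed the same order over the 6 pachytene libraries, *Tex2*, *Tex22* and *Tex40* the reverse order, and over all genes with at least 100 counts 3.41% had the same and 2.19% the reverse order. The part of this share in their differences was not tested.

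The genes of the sperm head, neck and mitochondrial sheath rose at the first step in KO in 5 of the 6 cases with a row, where 36.5% of all genes rose. *Tex38*, the partner of the palmitoyltransferase ZDHHC19, had 16, 15.6 and 14.8 CPM in KO pachytene spermatocytes, 51.6, 55.7 and 59.9 CPM in round spermatids and 25, 23.2 and 33.6 CPM in condensing spermatids. The 3 stages did not overlap, and the changes were 2.01 ± 0.15 (adjusted p = 2.19e-10) and −1.04 ± 0.14 (adjusted p = 3.77e-06). *Zdhhc19* moved alike, by 2.18 (adjusted p = 3.48e-12) and −0.61 (adjusted p = 1.08e-04).

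*Spata19*, a mitochondrial protein of the sperm midpiece, had 90.7 ± 7.39 CPM in KO pachytene spermatocytes, 512 ± 30.6 CPM in round and 398 ± 20.5 CPM in condensing spermatids (SD, n = 3). *Spata33*, which anchors calcineurin to sperm mitochondria, had 208, 253 and 253 CPM, then 400, 443 and 423 CPM, then 333, 302 and 349 CPM at these stages. It rose by 0.98 ± 0.11 (adjusted p = 1.85e-07), while the sperm calcineurin subunits *Ppp3cc* and *Ppp3r2* did not pass at this step (0.10 and −0.02 on the log2 scale). *Spata6*, needed for the join of head and tail, rose by 1.68 ± 0.11 (adjusted p = 2.29e-11) and overlapped between the spermatid fractions, at 1248, 1351 and 1174 CPM and 1090, 1160 and 1261 CPM (−0.11 ± 0.10, adjusted p = 0.370). *Spata16*, whose loss gives round-headed sperm without an acrosome, stood alone in this list with 412, 418 and 490 CPM in KO pachytene spermatocytes and 414, 369 and 430 CPM in round spermatids. Its first change, 0.03 ± 0.10, did not pass (adjusted p = 0.814), and it fell by 0.40 (SE 0.10, adjusted p = 0.00339) in condensing spermatids.

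*Spata18*, a gene of mitochondrial quality control, was the only one of the 55 whose WT means rose at all 3 steps, and per kilobase of its longest transcript it had the highest level of them all, 1006 CPM per kb in WT spermatozoa. Its WT libraries had 180, 176 and 94.9 CPM in pachytene spermatocytes, 764, 800 and 825 CPM in round spermatids, 1255, 1142 and 1573 CPM in condensing spermatids and 2048 and 1932 CPM in spermatozoa. The WT values are those that placed it in its group and are a description. In KO it rose by 2.88 ± 0.15 (adjusted p = 1.11e-12) and then by 0.82 ± 0.13 (adjusted p = 4.44e-05), but its single KO spermatozoa library had 890 CPM, below the 1106, 1451 and 1572 CPM of KO condensing spermatids.

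**Figure D4:**
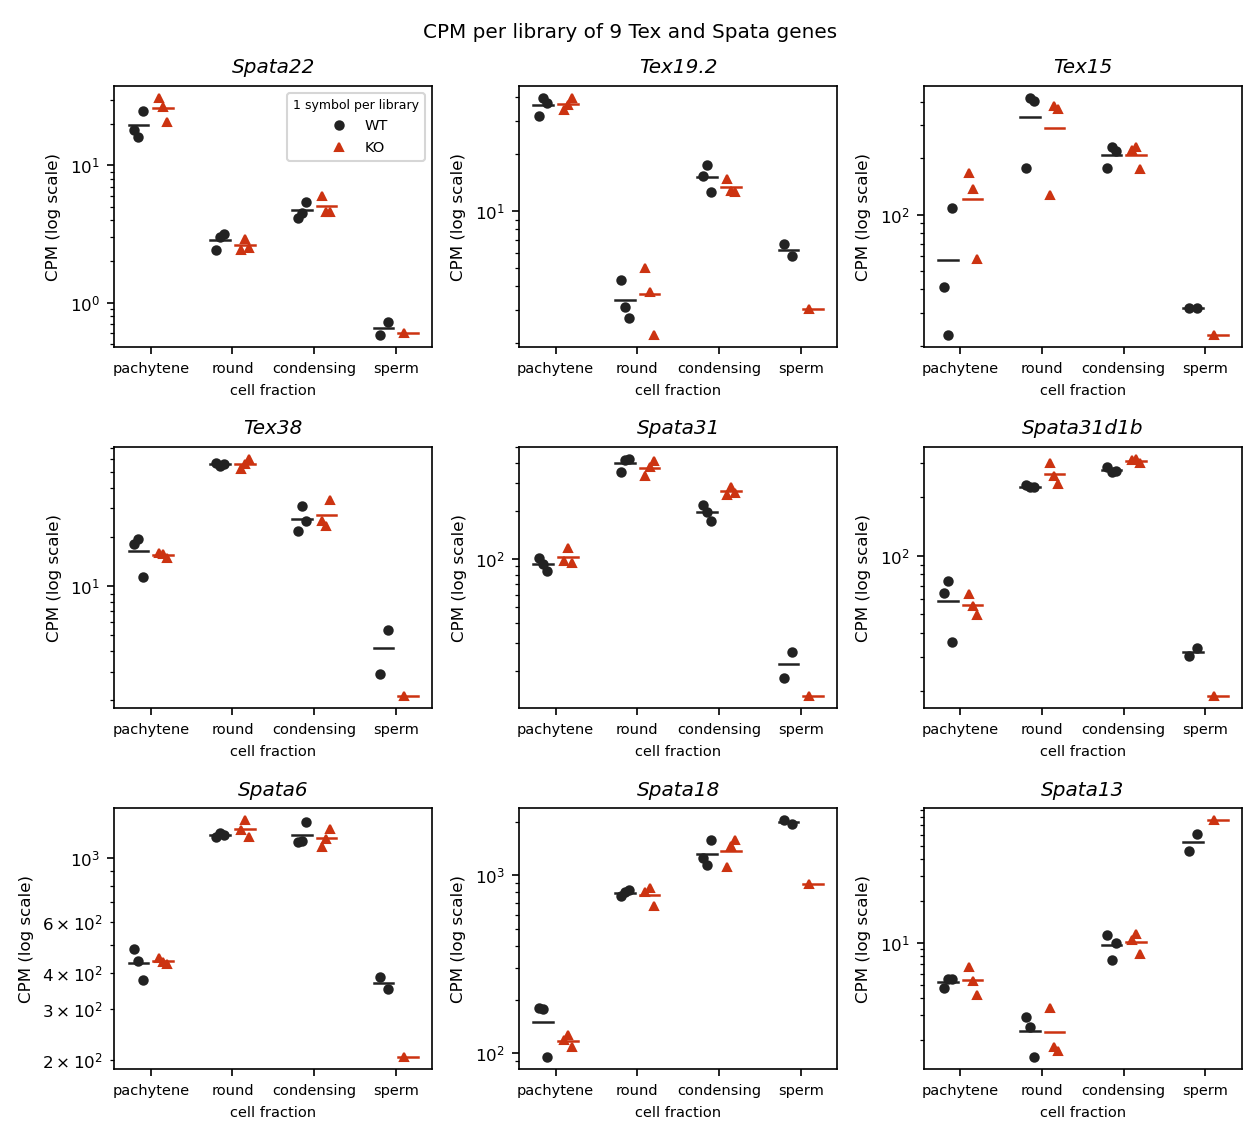
CPM on a log scale in each of the 21 libraries (circles WT, triangles KO, lines group means) of 9 genes, by cell fraction. *Spata22* and *Tex19.2* are highest in pachytene spermatocytes and drop in round spermatids, *Spata18* climbs to 2048 CPM in WT spermatozoa, and *Tex15* spreads widely within pachytene spermatocytes and round spermatids.

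The 5 genes of the *Spata31* family, which is needed for spermatid development, all rose in KO round spermatids, by 1.96 to 2.40 on the log2 scale. They lie on chromosome 13 and then parted. *Spata31* had 330, 379 and 408 CPM in KO round and 250, 284 and 260 CPM in KO condensing spermatids, and fell by 0.50 (SE 0.11, adjusted p = 0.00115). *Spata31d1d* had 202, 201 and 202 CPM and then 175, 170 and 162 CPM, with no overlap, and fell by 0.26 (SE 0.10, adjusted p = 0.0319). *Spata31d1c* went the other way, from 70.9, 72.1 and 71.5 CPM to 101, 95.1 and 80.3 CPM.

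*Spata31d1a* (175, 179 and 146 CPM, then 174, 181 and 184 CPM) and *Spata31d1b* (301, 258 and 233 CPM, then 310, 316 and 300 CPM) overlapped between the 2 spermatid stages and did not pass. These 2 share 912 stretches of 75 bases, 17.4% of those in *Spata31d1a* and 21.6% of those in *Spata31d1b*, so their counts are uncertain. The other 3 share 0 stretches with the family genes of this set, and copies under other names were not searched. In WT spermatozoa all 5 were low, at 8.28 to 31.8 CPM, after 83.6 to 277 CPM in condensing spermatids.

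Of the 9 tested genes from the list of widely expressed genes, 4 rose and 3 fell at the first step in KO, where 36.5% and 38.4% of all genes did. *Tex2*, a lipid transport protein of endoplasmic reticulum contacts, was the most abundant per kilobase after *Spata7* in this list, at 218 CPM per kb in WT round spermatids, and rose by 0.78 ± 0.10 (adjusted p = 4.18e-07). *Spata7*, a protein of the photoreceptor connecting cilium, had 126, 115 and 104 CPM in KO pachytene spermatocytes and 552, 567 and 533 CPM in round spermatids, a rise of 2.42 ± 0.11 (adjusted p = 2.85e-13). Its partner *Rpgrip1* rose by 0.41 (adjusted p = 0.00556). *Spata2l* rose by 2.12 ± 0.16 and fell by 1.04 (SE 0.14) at the next step, while its paralogue *Spata2*, the adaptor between CYLD and the linear ubiquitin ligase, fell by 0.75 (SE 0.17, adjusted p = 4.28e-04) at the first.

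*Tex10*, which works with *Pelp1* in ribosome biogenesis, rose by 0.28 ± 0.10 (adjusted p = 0.0152) and fell by 0.59 (SE 0.10, adjusted p = 5.31e-05). *Pelp1* rose by 0.42 and fell by 0.85 (adjusted p = 0.00103 and 1.47e-06). The other listed partners of *Tex10* did not move with it. *Senp3* and *Wdr18* fell at the first step (−0.89 and −0.61, adjusted p = 7.69e-07 and 2.23e-04) and did not pass at the second. *Las1l* did not pass at the first and rose at the second (0.72, adjusted p = 0.0222). *Spata5*, an AAA ATPase of ribosome maturation, fell by 0.56 (SE 0.11, adjusted p = 1.37e-04) from 178, 173 and 209 CPM to 124, 95.9 and 123 CPM. *Tex264*, a receptor for selective degradation of the endoplasmic reticulum, and *Tex261*, an export receptor there, did not pass at the first step (−0.17 ± 0.12 and −0.05 ± 0.12) and fell by 0.66 and 0.48 at the next. Of 17 known partners with a row, 16 were tested. From pachytene to round spermatids in KO 4 rose and 5 fell (36.5% and 38.4% of all genes), and from round to condensing 3 and 6 (29.7% and 24.5%). At the first step *Bnip3*, listed for *Spata18*, fell (−1.35, adjusted p = 1.01e-04), and *Rnf31*, listed for *Spata2*, rose (0.53, adjusted p = 0.0470), each opposite to its gene. *Bnip3* rose at the second step, as *Spata18* did (0.82, adjusted p = 0.0145).

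The 5 X-linked genes, *Tex11*, *Tex13*, *Tex13a*, *Tex16* and *Tex28*, all rose from pachytene spermatocytes, in which the X chromosome is silenced during meiosis, to round spermatids in KO, by 0.80 to 3.16. The largest rise was that of *Tex28*, which had 3, 2 and 0 counts in the KO pachytene libraries, so its size is uncertain. Of the other 466 X-linked genes tested 72.3% rose and 0% fell, so at this step these genes were like the rest of the chromosome in direction. From round to condensing spermatids in KO 0 of the 5 rose and 1, *Tex13*, fell, where 42.1% of the other 466 rose and 17.0% fell. Chromosome 11 held 7 of the 55 genes and chromosomes 8 and 13 held 6 each.

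Per kilobase, and by WT mean in the stage of the peak, *Spata4* (819 CPM per kb), *Spata24* (802) and *Spata19* (712) were highest in the round group. *Spata6* (487) and *Spata3* (431) led the condensing group, followed by *Spata32* (89.9), and *Tex40* (386), *Spata16* (242) and *Tex30* (83.3) led the pachytene group. In GENCODE vM21 the exons of *Tex30* overlap another annotated gene on the same strand, and those of *Spata24* overlap an entry named SPATA24. Their counts may miss reads if the annotation used for counting held these entries, which is not known. *Tex40*, now named *Catsperz*, encodes a subunit of the CatSper calcium channel of the sperm tail. With TMM it rose slightly in KO round spermatids, by 0.31 ± 0.11 (adjusted p = 0.0158). Its WT grouping used CPM without TMM, and with TMM-normalized CPM it was in the round group in WT too. Scaled by library size alone, the KO change was 0.16 and did not pass (adjusted p = 0.166). The largest ratios of the highest to the next WT mean were 5.53 for *Spata13*, 4.16 for *Spata22*, 2.38 for *Tex19.2* and 2.34 for *Tex19.1*, then 2.29, 2.17, 2.15 and 2.15 for *Spata45*, *Spata2l*, *Tex38* and *Tex21* of the round group.

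In spermatozoa most of these transcripts were low. The median ratio of the WT spermatozoa mean to the WT condensing mean was 0.244 over the 55 genes and 0.939 over 17737 genes, and in KO, with 1 spermatozoa library and thus no test, 0.142 and 0.855. In WT the ratio was above 1 for 5 genes, *Spata13*, *Spata17*, *Spata18*, *Spata2* and *Spata5l1*. In the KO library it was above 1 for *Spata13*, *Spata2*, *Spata5l1*, *Tex261* and *Tex264*, while *Spata17* had 21.8 CPM there after 70.3, 77.3 and 66.0 CPM in KO condensing spermatids. In KO *Spata13* fell by 1.07 (SE 0.29, adjusted p = 0.00261) in round spermatids and rose by 2.13 ± 0.26 (adjusted p = 1.78e-06) in condensing spermatids. The gene had 11.3, 7.49 and 10.0 CPM in WT condensing spermatids, 45.5 and 60.6 CPM in WT spermatozoa and 76.7 CPM in KO spermatozoa. *Spata2* had 23.8 and 16.2 CPM in WT and 39.7 CPM in KO spermatozoa, and *Spata5l1*, the paralogue of *Spata5*, 1.45 and 3.25 CPM in WT and 6.97 CPM in KO, where 3 counts are worth 0.869, 1.08 and 0.910 CPM.

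For these 3 genes the KO spermatozoa library had the highest value of the 21 libraries, and the macrophage markers were also highest in it (1072 CPM, against 243 and 252 CPM in WT, with each of the 5 detected). The epididymis markers were lower in it (548 CPM) than in WT (1785 and 1971 CPM). Of these, *Lcn5* was at 0 in all 3 libraries, *Rnase10* also in WT replicate 2 and KO, and *Defb30* also in WT replicate 2. The part of either marker list in these values was not tested. *Tex11* was listed at 0 counts in the KO spermatozoa library, which allows up to 0.910 CPM, as was *Tex13*.

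Between KO and WT no gene of the set passed in any stage. In pachytene spermatocytes 0 of 53 tested genes were called (0% of 12236 genes), with 1 (1.89%, against 6.66% of all genes) at an unadjusted p under 0.05. In round spermatids 0 of 54 were called (0.0156% of 12804 genes), with 3 (5.56% against 5.88%) under 0.05, and in condensing spermatids 0 of 54 (0.00728% of 13734 genes), with 5 (9.26% against 6.33%) under 0.05. The DESeq2 Wald test called 0, 0 and 1 gene, the last of 55 tested, where 13 of 19738 among all genes were called. The log2 fold changes lay between −0.51 and 1.09, −0.55 and 0.51, and −0.43 and 0.47, with median standard errors of 0.20, 0.10 and 0.13, so that small differences were not resolved, least of all in pachytene spermatocytes. There even the targeted gene, at −2.75, did not pass by edgeR (adjusted p = 0.484), so larger differences could go uncalled too. No gene of the set was called for a difference of the KO effect between stages either. For both round against pachytene and condensing against round 0 of 54 were called (0% and 0% of 14479 genes) by edgeR and by DESeq2. Under an unadjusted 0.05 there were 2 (3.70% against 7.25% of all genes) and 1 (1.85% against 2.81%). The median standard errors were 0.24 and 0.23, so small differences of the effect were not resolved.

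The smallest p in condensing spermatids was that of *Spata31*, with 217, 197 and 173 CPM in WT and 250, 284 and 260 CPM in KO. All KO libraries were higher, by 0.47 ± 0.11 on the log2 scale, but the adjusted p was 0.412 and ranged from 0.0483, with DESeq2, to 1 over the alternatives. In round spermatids *Spata31* overlapped between genotypes (351, 414 and 423 CPM against 330, 379 and 408 CPM), and the difference between the 2 effects, 0.57 ± 0.19, did not pass (adjusted p = 1). The most negative in condensing spermatids was *Tex19.1*, with 4.47, 5.54 and 5.11 CPM in WT and 5.67, 2.30 and 3.14 CPM in KO, at −0.43, where the adjusted p over the alternatives was 0.699 to 1. Its differences of the KO effect between stages, 0.78 ± 0.39 for round minus pachytene and −0.84 ± 0.43 for condensing minus round, did not pass (adjusted p = 0.676 and 1).

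In round spermatids *Tex9* had 25.1, 44.3 and 45.2 CPM in WT and 24.2, 26.8 and 27.9 CPM in KO, where the WT library of replicate 1 lay within the KO range. The change was −0.55 ± 0.20 (adjusted p = 0.739), and without that library −0.78 (adjusted p = 0.00258). That setting called 1 of 54 genes of the set and 264 of 13045 among all genes. The WT group then holds only the 2 libraries that differed by little more than counting noise, so its spread may be technical, and with these 2 summed the change was −0.44 (adjusted p = 1). The difference of its KO effect between round and pachytene, −1.02 ± 0.35, had an adjusted p of 0.676. *Spata31d1b*, the smallest p among those higher in KO round spermatids, was 0.20 ± 0.09 (adjusted p = 0.848), with 231, 226 and 225 CPM in WT and all of 301, 258 and 233 CPM in KO above them.

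In pachytene spermatocytes *Tex24* had 8.56, 7.56 and 8.70 CPM in WT and 16.2, 15.2 and 8.51 CPM in KO, a change of 0.71 ± 0.25, and *Tex261* had 50.5, 60.4 and 47.5 CPM against 41.2, 38.5 and 48.1 CPM, a change of −0.27 ± 0.13. The adjusted p was 0.656 for both, and the genotypes overlapped. Leaving out the WT pachytene library of replicate 3 called 5 of 53 tested genes of the set, and 243 of 12555 among all genes. *Spata18*, *Spata3* and *Tex37* were then lower in KO (−0.55, −0.65 and −0.82) and *Tex15* and *Tex9* higher (1.95 and 0.84), with adjusted p from 0.0388 to 0.0485. *Spata3* and *Tex37* are named in this comparison because of that result, after their values were seen. In the left-out library *Tex37* had 17.7 CPM, beside 46.9 and 43.8 CPM in the other 2 WT libraries and 27.4, 24.8 and 22.3 CPM in KO. Like the sum of condensing markers, it was lowest there.

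**Figure D5:**
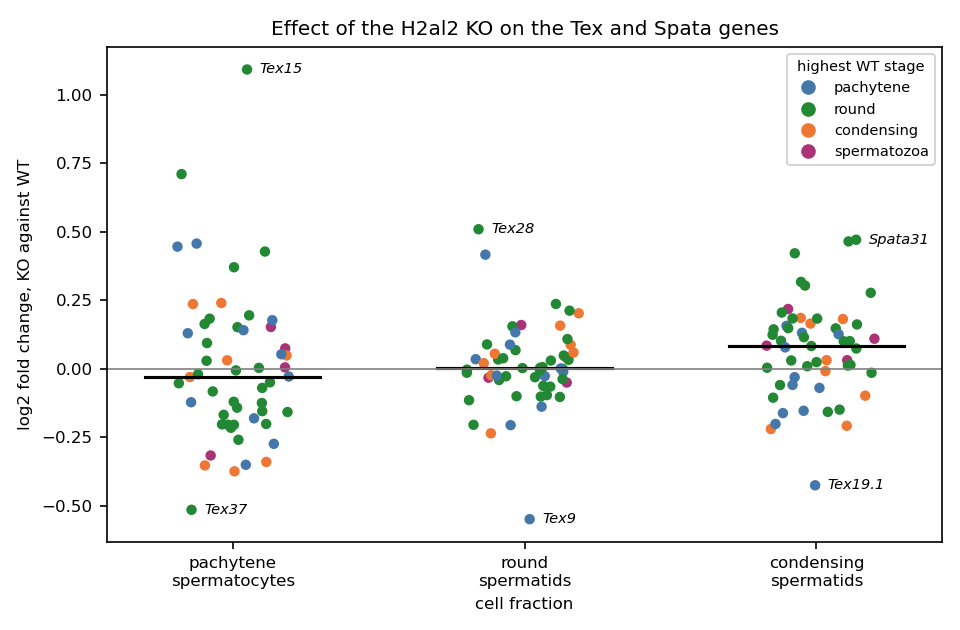
Log2 fold changes of the *Tex* and *Spata* genes in KO against WT (points, coloured by the stage of the highest WT mean, with the median as a black line) in 3 cell fractions, with the highest and the lowest gene named. The medians lie at −0.03, 0.00 and 0.08, the points spread most in pachytene spermatocytes, and no gene passed the test.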

How the data were processed

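The authors aligned paired-end reads of ribosome-depleted, stranded libraries to mm10 with STAR 2.7.11b and counted them by strand over exons with HTSeq, and per the labels and files they deposited these counts without normalization. The 5 lines that name no gene held 34.6% to 57.7% of the counts and entered neither library sizes nor tests. Groups came from the sample labels. Members and lists were chosen with earlier results of these data known. CPM were taken per 1000000 counts on genes, and levels between genes per kb of the longest GENCODE vM21 transcript. RefSeq matched 53 of the genes by symbol and 2 by a synonym.

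Comparisons used edgeR 4.0.16 (R 4.3.3) on the counts as deposited, with TMM, filterByExpr, the quasi-likelihood test and Benjamini-Hochberg adjustment over all genes at 0.05, on the libraries of the comparison's genotype or stages. Simulated counts with known changes were tested first. Alternatives were DESeq2 1.42.0, other scalings, no filter, a replicate block, pooled fits and each library left out. A count of 0 allows 3 counts, for counting error only. Named with values were the genes of 4 role lists, in each stage group the 5 with the largest ratio of the highest to the next mean, at 5 CPM or more, and the 3 with the highest level per kb, and in each genotype comparison those called or with the smallest p in each direction.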

Additional observations from a re-analysis of the deposited data

How the results depend on the processing

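Most counts stayed within 1.5 times of the reported one under every alternative tried. The exceptions concern small counts. With WT round spermatid replicates 2 and 3 summed, since they differed by little more than counting noise, 3 instead of 5 genes rose from round to condensing spermatids in WT, and with 1 library left out 3 to 5 did. From condensing spermatids to spermatozoa 2 to 4 rose with 1 library left out, the 2 without WT spermatozoa replicate 1. In KO against WT, 0 to 5 genes were called in pachytene spermatocytes (5 without WT replicate 3), 0 to 1 in round spermatids (1, *Tex9*, without WT replicate 1) and 0 in condensing spermatids, where the DESeq2 Wald test called 1, *Spata31*. These 3 settings called 5 of 53, 1 of 54 and 1 of 55 genes of the set, and 243 of 12555, 264 of 13045 and 13 of 19738 among all genes. The group highest in condensing spermatids had 4 genes with TMM-normalized CPM, 2 with DESeq2 size factors and 5 to 9 with 1 library left out (5 without WT condensing replicate 3). The spermatozoa group had 3 to 5 (3 without WT spermatozoa replicate 1). The cause of these changes was not tested.

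Of the 58 stage changes of named genes called in KO, 49 were called under every alternative, and no direction reversed. Those lost at times were *Spata4*, *Tex10* and *Tex40* at the first step and *Spata19*, *Spata24*, *Spata31d1d*, *Spata33*, *Tex14* and *Tex9* at the second, each in the same direction.

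Deviations of samples with the same replicate number correlated at −0.208 to 0.269. Only between KO and WT round spermatids were the correlations of all pairs positive (0.254, 0.0986 and 0.0565). The numbers were taken not to pair the samples. With the replicate number as a block 48, 27, 49, 34 and 52 genes of the set were called in the 5 stage comparisons (47, 27, 50, 35 and 52 without). In the KO comparisons 0 genes of the set were called with the block. Of all genes, the block called 61 between KO and WT in round and 26 in condensing spermatids, against 2 and 1 without. Depth limits the spermatozoa, at 2772995 to 3450580 counts, and genes near 1 CPM such as *Spata5l1*.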
